A study of Mus musculus with 12 samples.

Results

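The genes described here encode the kinase complexes through which tumor necrosis factor (TNF) receptors reach NF-kB. They are Chuk, Ikbkb and Ikbkg of the IkB kinase (IKK) complex, Map3k7, Tab1, Tab2 and Tab3 of the TAK1 complex, the noncanonical kinase Map3k14, the IKK-related kinase Tbk1 and the deubiquitinase Cyld. They were chosen by gene symbol, and all 10 were found among the 24411 gene symbols measured. RNA sequencing was done on primary colonic myofibroblasts, the contractile mesenchymal cells beneath the crypt epithelium. There were 6 libraries from TNFR1-/- mice (knockout) and 6 from heterozygous TNFR1-/+ mice (control). TNFR1, the product of Tnfrsf1a, is the main receptor for TNF.

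Both groups had the C57BL/6 background, and cells were taken from the distal colon of mice aged 16 weeks. All cultures were grown in medium with 10% fetal bovine serum, insulin, transferrin, selenite and 20 ng/mL epidermal growth factor, were used at passage 6 to 8, and were collected on day 5 in Matrigel. Neither group was treated with TNF, and the controls carry 1 disrupted allele. The cells had been expanded in culture, and the labels do not tie libraries to separate animals or cultures, so p-values measure only the spread between these libraries, which may be technical.

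When TNF binds TNFR1, adaptor proteins and ubiquitin ligases assemble chains of ubiquitin on the receptor complex. TAK1 is brought to these chains by TAB2 or TAB3 and IKK by its regulatory subunit NEMO, and TAK1 then helps to activate IKK. IKK phosphorylates the IkB proteins that hold NF-kB in the cytoplasm, which leads to their destruction. A second route, the noncanonical one, runs from NIK to IKK-alpha and the processing of the NF-kB precursor p100. These kinases are regulated mainly as proteins, by phosphorylation and ubiquitin, and transcript levels do not measure their activity.

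Sequences 5′ of the gene start are shown for Chuk, the member whose knockout and control libraries did not overlap, and for Map3k7 and Cyld, the members with a match to the NF-kB binding consensus. Each is the 250 bases before the RefSeq gene start on GRCm38.p6, printed 5′ to 3′ on the gene's strand. Capitals mark matches on either strand to the kB consensus, the GC box GGGCGG and the CCAAT box CCAAT, and none of these overlap here.
Chuk, chr19:44107478-44107727, minus strand: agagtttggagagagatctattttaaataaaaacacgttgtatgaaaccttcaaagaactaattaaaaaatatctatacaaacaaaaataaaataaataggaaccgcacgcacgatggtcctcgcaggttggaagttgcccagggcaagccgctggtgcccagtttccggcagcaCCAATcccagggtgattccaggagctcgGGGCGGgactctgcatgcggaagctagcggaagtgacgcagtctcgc
Map3k7, chr4:31963857-31964106, plus strand: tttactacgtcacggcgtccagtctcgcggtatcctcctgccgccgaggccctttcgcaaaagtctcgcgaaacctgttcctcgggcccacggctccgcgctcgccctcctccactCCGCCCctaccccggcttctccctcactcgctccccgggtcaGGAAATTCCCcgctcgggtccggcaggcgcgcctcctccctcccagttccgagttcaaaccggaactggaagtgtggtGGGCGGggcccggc
Cyld, chr8:88696778-88697027, plus strand: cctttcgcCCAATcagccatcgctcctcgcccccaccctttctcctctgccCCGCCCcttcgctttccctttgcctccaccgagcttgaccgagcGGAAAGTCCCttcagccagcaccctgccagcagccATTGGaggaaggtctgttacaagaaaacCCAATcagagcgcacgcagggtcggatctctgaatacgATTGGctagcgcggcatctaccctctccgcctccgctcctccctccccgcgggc

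The promoter table held 8 of the 10 members (all but Ikbkb and Tab1), in 12 windows, since Ikbkg and Tab2 have more than 1 start. A kB consensus match stood in at least 1 window of 2 members, at 92 bases before the start of Map3k7 and 155 bases before that of Cyld, and 7.25% of all 32851 windows of this length held one. GC boxes were found for 8 members (32.7% of all windows) and CCAAT boxes for 5 members (33.8%). A member with several windows had more places for a match, so counts of members are not directly comparable with shares of windows. The Chuk window had a G and C content of 47.6%, against 68.0% for Map3k7, 62.8% for Cyld and a median of 52.4% over all windows. A match is a match of letters only, and binding was not measured.

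Total counts ran from 6543006 to 9936996 in knockout and from 11890737 to 16458674 in control libraries, and the members had between 75 counts (Map3k14 in knockout 6) and 2413 counts (Tab2 in control 4). Levels are given in CPM, read counts scaled to the size of the library. Tnfrsf1a averaged 44.1 ± 2.32 CPM in knockout and 74.7 ± 10.1 CPM in control libraries (SD, n = 6 each), with every knockout library below every control (log2 difference -0.76; edgeR adjusted p = 9.24e-05). Control 6, at 54.9 CPM, was nearest to the knockouts, while control 1 to 5 stood at 73.5 to 81.3 CPM. Knockout 5 and 6 were below control 6 by a log2 difference of only -0.26. The labels do not say which part of Tnfrsf1a is deleted, so reads outside that part can remain in the knockout. The profiles fell into 4 sets, with the first 4 knockout libraries alike, knockout 5 and 6 a pair apart, control 1 to 5 alike and control 6 alone (Spearman correlations of 0.989 to 0.998 within sets, 0.926 to 0.927 between the knockout sets and 0.952 to 0.954 between the control sets). Control 6 correlated more closely with knockout 1 to 4 (0.968 to 0.976) than with the other controls, while knockout 1 to 4 and control 1 to 5 correlated at 0.937 to 0.941. The precursor RNA Rn45s took 7.01% and 8.25% of the counts in knockout 5 and 6 and at most 2.1% in any other library. Fibroblast markers were abundant as a sum in all libraries, at 8320 to 24470 CPM in knockout and 22780 to 30830 CPM in control libraries. Single markers differed. Col1a1 was at 1993 and 2102 CPM in knockout 5 and 6, against 10467 to 11420 CPM in knockout 1 to 4. Vim was at 3932 and 3844 CPM in knockout 5 and 6, against 3626 to 4043 CPM in knockout 1 to 4. Lum was at 4.86 to 9.65 CPM in knockout and 19.2 to 35.7 CPM in control libraries.

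Of the 10 members, 4 rose in the knockout (Chuk, Tab3, Tbk1 and Map3k7), 0 fell and 6 did not pass an adjusted p of 0.05 (edgeR quasi-likelihood test, Benjamini-Hochberg over 12146 genes). Over all genes 43.0% passed, 21.4% higher and 21.6% lower, so the members passed about as often as any other gene. An unadjusted p under 0.05 was reached by 6 members and by 51.2% of all genes. Their median log2 difference, knockout minus control, was 0.07, against 0.02 over all genes tested. The knockout and control libraries did not overlap for 1 member, Chuk, which was higher; 23.0% of all genes were separated in either direction and 10.6% in that one. The same fit called 3 higher and 1 lower without knockout 5 and 6 (52.0% of genes called, 24.5% higher and 27.5% lower). It called 5 higher and 2 lower when control 6 was left out as well (71.3% called, 34.9% higher and 36.4% lower). Without control 6 alone it called the same number of members in each direction (49.9% called, 25.4% higher and 24.5% lower). Without control 1 it called 2, Chuk and Tbk1, both higher (36.7% called, 18% higher and 18.7% lower). It called 0 members and 0 genes (0%) when counts were summed over the 4 sets, where 1047 genes and 1 member had an unadjusted p under 0.05, and on these sums DESeq2 called 198 genes and limma-voom 0, none of them a member.

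**Figure D1:**
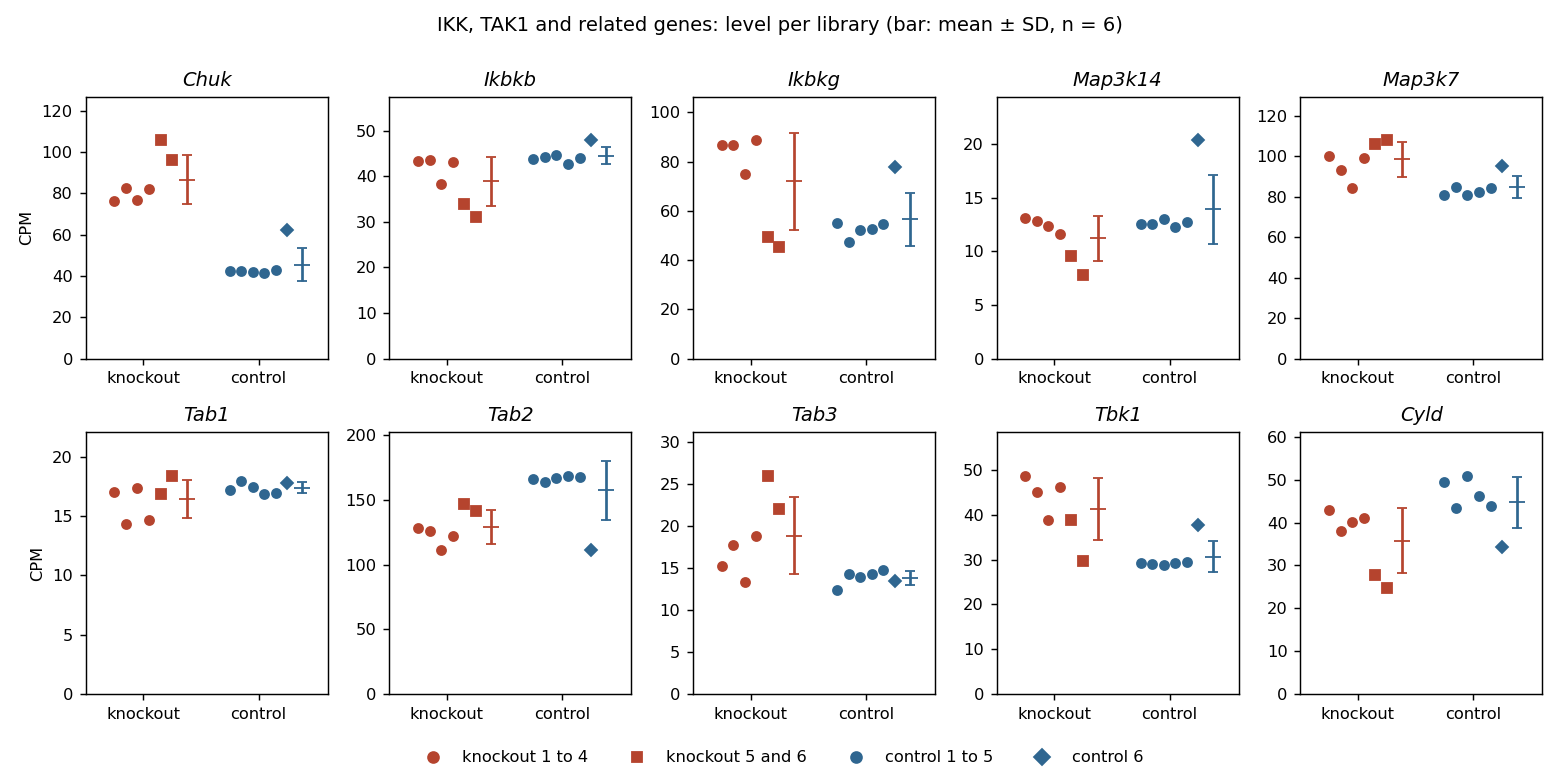
Level of each of the 10 genes in CPM (vertical axis, from 0) in the 6 knockout (red) and 6 control libraries (blue), with the mean and SD beside them and the library sets shown by marker shape. Chuk is the gene whose red points all lie above the blue ones, and control 6 stands apart from control 1 to 5 for Chuk, Ikbkg, Map3k14, Map3k7, Tab2 and Tbk1.

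Chuk encodes IKK-alpha, a catalytic subunit of the IKK complex and the kinase that carries the noncanonical route. Chuk stood at 76.4, 82.8, 76.7, 82.0, 105.7 and 96.2 CPM in knockout 1 to 6, against 42.3, 42.4, 41.9, 41.2, 43.0 and 62.1 CPM in control 1 to 6. Every knockout library was above every control, with control 6 nearest to them. Chuk averaged 86.6 ± 11.8 CPM in knockout and 45.5 ± 8.17 CPM in control libraries (SD, n = 6 each). The log2 difference was 0.93 (SE 0.12; 95% interval 0.66 to 1.19; edgeR adjusted p = 0.000114), a 1.90-fold rise that ranked 457 of 12146 genes by adjusted p. Between sets the log2 difference was smallest, at 0.36, where knockout 1 to 4 were set against control 6, and largest, at 1.26, for the pair knockout 5 and 6 over control 1 to 5. On the 4 summed sets the log2 difference was 0.80 and the edgeR adjusted p was 0.613.

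Ikbkb encodes IKK-beta, the catalytic subunit that phosphorylates IkB after TNF. Ikbkb transcripts stood at 43.3, 43.6, 38.4, 43.2, 34.0 and 31.1 CPM in knockout 1 to 6, against 43.8, 44.4, 44.7, 42.7, 44.1 and 48.0 CPM in control 1 to 6. Knockout 5 and 6 were below all other libraries, while knockout 1, 2 and 4 lay at the lower edge of the controls. The log2 difference of -0.19 (SE 0.09; 95% interval -0.40 to 0.01) did not pass (edgeR adjusted p = 0.109).

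Ikbkg encodes NEMO, the regulatory subunit that binds ubiquitin chains and without which canonical IKK is not activated. Ikbkg measured 86.9, 86.7, 75.1, 88.7, 49.5 and 45.3 CPM in knockout 1 to 6, against 55.3, 47.3, 52.1, 52.8, 54.5 and 77.7 CPM in control 1 to 6. Knockout 1 to 4 and control 6 were high, and knockout 5 and 6 lay within or below control 1 to 5. The fitted log2 difference was 0.35 (SE 0.19; 95% interval -0.05 to 0.75; edgeR adjusted p = 0.147). It was 0.70 for knockout 1 to 4 against control 1 to 5 but -0.71 for knockout 5 and 6 against control 6. The test passed without knockout 5 and 6 (log2 difference 0.58; adjusted p = 0.00284), without knockout 6 (0.45; adjusted p = 0.0416) and without control 6 (0.46; adjusted p = 0.0490).

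The 2 catalytic subunits are paralogues, so their balance was compared as the ratio of Chuk to Ikbkb counts within each library, which does not depend on depth or scaling. The ratio was 1.76, 1.90, 1.99, 1.90, 3.10 and 3.09 in knockout 1 to 6, against 0.967, 0.956, 0.938, 0.966, 0.976 and 1.3 in control 1 to 6. The groups did not overlap, and the ratio was highest in knockout 5 and 6, the libraries with the most Chuk and the least Ikbkb. Its geometric mean was 2.22 in knockout and 1.01 in control libraries, a 2.20-fold difference (1.14 on the log2 scale; exact two-sided permutation p = 0.00216, the smallest that 6 against 6 libraries allow; p = 0.00325 adjusted over 3 ratios). Libraries of a set resemble each other, so the permutation counts more independent values than the 4 sets give. Counts of different genes are not scaled by length here, and the ratio is compared only between libraries.

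Map3k7 encodes TAK1, the kinase above both IKK and the JNK and p38 cascades. Map3k7 stood at 99.9, 92.9, 84.5, 99.0, 106.0 and 107.8 CPM in knockout 1 to 6, against 80.6, 84.7, 80.8, 82.3, 84.5 and 95.01 CPM in control 1 to 6. The groups overlapped through knockout 3 and control 6. The rise was small, with a log2 difference of 0.22 (SE 0.08; edgeR adjusted p = 0.0373). Leaving out any one of knockout 1, 4, 5 and 6 or of control 1 to 5 ended the call (adjusted p = 0.0587 to 0.0830), and the difference was 0.00 between knockout 1 to 4 and control 6.

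The TAB proteins are the partners of TAK1. Tab1, which binds the kinase and promotes its activation, ranged from 14.4 to 18.4 CPM in knockout and from 16.9 to 18.0 CPM in control libraries (medians 17.0 and 17.4 CPM). Its log2 difference of -0.08 did not pass (95% interval -0.26 to 0.10; edgeR adjusted p = 0.471). Tab2 and Tab3 are related adaptors that tie TAK1 to ubiquitin chains.

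Tab2 was at 128.1, 125.7, 111.2, 122.2, 146.7 and 141.8 CPM in knockout 1 to 6, against 166.6, 163.7, 167.3, 168.8, 167.8 and 111.4 CPM in control 1 to 6. All knockout libraries were below control 1 to 5, while control 6 was lower than all of them except knockout 3. The log2 difference was -0.29 (SE 0.11; edgeR adjusted p = 0.0546) and did not pass. Without control 6 it was -0.37 (adjusted p = 0.00151), without knockout 5 it was -0.32 (0.0411), and without knockout 5 and 6 together -0.37 (0.0182).

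Tab3 was at 15.2, 17.7, 13.3, 18.7, 25.9 and 21.9 CPM in knockout 1 to 6, against 12.4, 14.3, 13.9, 14.2, 14.7 and 13.4 CPM in control 1 to 6. Knockout 3, the shallowest library with 84 counts of this gene, lay among the controls, and knockout 5 and 6 were highest. The log2 difference was 0.45 (SE 0.14; edgeR adjusted p = 0.0246), and it was above 0 in each contrast of sets, from 0.24 to 0.83. The call was lost without control 1 (adjusted p = 0.0563) and without knockout 5 and 6 (log2 difference 0.24; adjusted p = 0.0696).

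The ratio of Tab2 to Tab3 counts was 5.65 to 8.42 in knockout libraries and 8.29 to 13.45 in control libraries, with control 6 the lowest control. Control 6 lay between the knockout libraries, and control 1 to 5 were above all of them. The geometric means were 7.0 in knockout and 11.3 in control libraries, a log2 difference of -0.69 (exact two-sided permutation p = 0.00649; 0.00649 adjusted over 3 ratios).

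**Figure D2:**
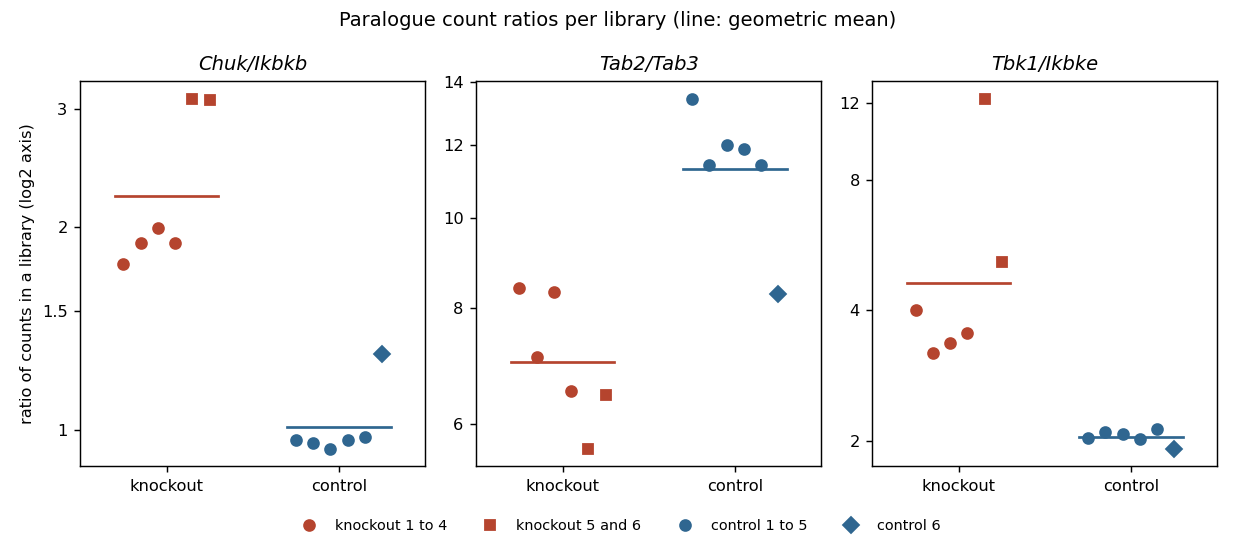
Ratio of the counts of 2 paralogues in each library (vertical axis, log2 scale) for knockout (red, left) and control (blue, right), with the geometric mean as a line and library sets shown by marker shape. Chuk/Ikbkb and Tbk1/Ikbke are higher in all knockout libraries, and for Tab2/Tab3 control 6 lies among the knockout libraries.

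Map3k14 encodes NIK, which activates IKK-alpha in the noncanonical route and is kept low in resting cells by degradation of the protein. Map3k14 measured 13.1, 12.8, 12.3, 11.6, 9.55 and 7.76 CPM in knockout 1 to 6, against 12.5, 12.5, 13.1, 12.2, 12.7 and 20.4 CPM in control 1 to 6. Knockout 1 to 4 and control 1 to 5 overlapped, knockout 5 and 6 were lowest and control 6 highest. The log2 difference was -0.32 (SE 0.17; 95% interval -0.67 to 0.04; edgeR adjusted p = 0.142), and between sets it ran from -1.23 to -0.02.

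Tbk1 encodes a kinase related to the IKK catalytic subunits that acts on interferon regulatory factors and on autophagy receptors. Tbk1 measured 48.8, 45.2, 38.9, 46.2, 38.9 and 29.7 CPM in knockout 1 to 6, against 29.3, 29.1, 28.9, 29.3, 29.5 and 37.7 CPM in control 1 to 6. All knockout libraries were above control 1 to 5, knockout 6 barely so, and control 6 was above knockout 6. The log2 difference was 0.43 (SE 0.12; edgeR adjusted p = 0.0123), and it was -0.14 for knockout 5 and 6 against control 6.

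Ikbke, the gene of the related kinase IKK-epsilon and no member, had 12.1, 14.1, 11.5, 13.0, 3.11 and 5.69 CPM in knockout 1 to 6, against 13.9 to 19.7 CPM in control libraries, and did not pass (log2 difference -0.60; edgeR adjusted p = 0.112). The ratio of Tbk1 to Ikbke counts was 3.19 to 12.3 in knockout and 1.92 to 2.13 in control libraries. The groups did not overlap, and the log2 difference was 1.18 (exact two-sided permutation p = 0.00216; 0.00325 adjusted over 3 ratios). Without knockout 5 and 6, which had only 30 and 55 counts of Ikbke, it was 0.78.

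Cyld encodes an enzyme that removes ubiquitin chains from components of these complexes and so limits NF-kB activation. Cyld stood at 43.0, 37.98, 40.2, 41.2, 27.7 and 24.7 CPM in knockout 1 to 6, against 49.4, 43.5, 51.0, 46.2, 44.0 and 34.3 CPM in control 1 to 6. Knockout libraries were below control 1 to 5, with knockout 5 and 6 lowest, and control 6 lay between the knockout sets. The log2 difference of -0.32 (SE 0.15; 95% interval -0.64 to -0.00, not adjusted) did not pass (edgeR adjusted p = 0.0947). It passed without control 6 (-0.39; adjusted p = 0.0396), and it was 0.25 for knockout 1 to 4 against control 6.

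**Figure D3:**
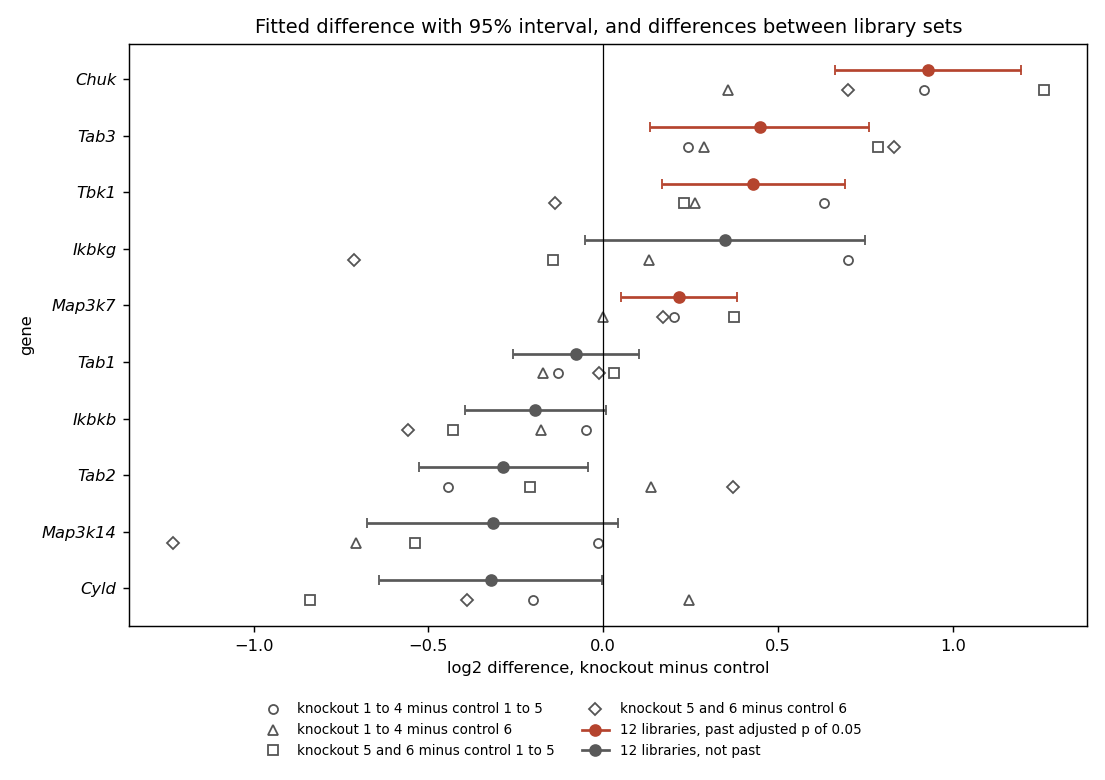
Log2 difference, knockout minus control (horizontal axis), of each of the 10 genes (vertical axis). Filled points with bars give the edgeR fit over 12 libraries with its 95% interval, red where the adjusted p was under 0.05, and open markers give each knockout set minus each control set. The open markers lie above 0 for Chuk and Tab3 and below 0 for Ikbkb and Map3k14, while those of Ikbkg run from -0.71 to 0.70.

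For Ikbkb, Ikbkg, Map3k14, Tab1, Tab2, Tab3 and Cyld, the larger set difference within 1 genotype exceeded the fitted genotype difference in size. For Chuk, Map3k7 and Tbk1 it did not. Knockout 5 and 6 differed from knockout 1 to 4 by a log2 difference of -0.84 for Ikbkg, -0.64 for Cyld, -0.52 for Map3k14 and 0.54 for Tab3. Control 6 differed from control 1 to 5 by 0.69 for Map3k14, 0.57 for Ikbkg, 0.56 for Chuk and -0.58 for Tab2. Over all genes the median absolute log2 difference was 0.49 between the knockout sets, 0.36 between the control sets and 0.35 between knockout and control libraries. The values between sets come from summed counts of unequal numbers of libraries and the last from the fit over 12 libraries. Their sizes are thus not directly comparable. Both knockout sets were above both control sets for Chuk, Tab3 and Map3k7, and below them for Ikbkb and Map3k14. The smallest of these differences was 0.36 for Chuk and 0.24 for Tab3. It was near 0 for Map3k7 (0.0003), Ikbkb (-0.05) and Map3k14 (-0.02). Of all genes, 21.3% were above and 22.4% below in this way.

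Levels of different genes were compared per kilobase of the longest principal transcript in GENCODE M21, as CPM per kb. In knockout libraries the order was Tab2 (29.5 ± 2.98), Chuk (24.7 ± 3.37), Map3k7 (17.4 ± 1.53), Tbk1 (13.7 ± 2.29), Ikbkb (10.9 ± 1.5), Ikbkg (10.6 ± 2.91), Tab1 (5.56 ± 0.539), Cyld (4.51 ± 0.964), Tab3 (2.95 ± 0.722) and Map3k14 (2.64 ± 0.496; SD, n = 6 each). In control libraries it was Tab2 (36.0 ± 5.18), Map3k7 (14.9 ± 0.946), Chuk (13.0 ± 2.33), Ikbkb (12.4 ± 0.499), Tbk1 (10.1 ± 1.15), Ikbkg (8.34 ± 1.58), Tab1 (5.87 ± 0.153), Cyld (5.63 ± 0.741), Map3k14 (3.27 ± 0.748) and Tab3 (2.17 ± 0.131). Chuk and Ikbkb thus had overlapping levels per length in control libraries, and Chuk was above Ikbkb in every knockout library. The ranges of neighbours overlapped in knockout libraries except between Chuk and Map3k7 and between Ikbkg and Tab1. In control libraries they overlapped except between Tab2 and Map3k7, Ikbkg and Tab1, and Map3k14 and Tab3. The transcripts present in these cells were not measured, and Ikbkg and Cyld each have 3 principal transcripts, so their places are the least certain.

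Over the 12 libraries the members did not vary as 1 block. Pearson correlations of log2 CPM were 0.88 for Chuk and Map3k7, 0.87 for Ikbkg and Tbk1, 0.87 for Ikbkb and Map3k14, and 0.83 for Map3k7 and Tab3. They were -0.64 for Chuk and Ikbkb, -0.79 for Ikbkg and Tab2, and -0.84 for Map3k7 and Cyld. The 12 points share library scaling and fall into 4 sets, so these values are descriptions only.

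Among all tested genes, those whose log2 CPM followed Chuk most closely over the 12 libraries were Mtpn (myotrophin, r = 0.996), Pmpca (a mitochondrial processing peptidase subunit, 0.995) and Celf1 (an RNA-binding protein, 0.995). Closest to Ikbkb were Nfix (0.981), Tvp23a (0.980) and Evi5l (0.978), and closest to Ikbkg were Slc38a2 (0.991), Maml2 (0.990) and Trim2 (0.988). Closest to Map3k7 were Wwc2 (0.975), Soga1 (0.974) and Rapgef1 (0.973). With 4 sets of libraries and 12146 genes, high correlations are common, and nothing further was read from them.

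The genes around the complexes moved in both directions. Of 56 genes in 6 lists, all of them tested, 14 rose, 17 fell and 25 did not pass. Over all genes tested, 43.0% passed, 21.4% higher and 21.6% lower, and these shares are the background for each list below. The median log2 difference of the 56 genes was -0.03 against 0.02 over all genes. Without knockout 5 and 6, 14 rose and 22 fell, where 52.0% of all genes passed, 24.5% higher and 27.5% lower. The genes named as risen or fallen in these lists had edgeR adjusted p-values of at most 0.0205. Among 14 upstream adaptors and ubiquitin ligases 3 rose, 5 fell and 6 did not pass, with a median of -0.22. Traf5, an adaptor of TNF receptors, averaged 19.4 ± 3.03 CPM in knockout and 8.69 ± 2.09 CPM in control libraries (SD, n = 6 each; log2 difference 1.15). The ubiquitin-conjugating enzymes Ube2n and Ube2d3, which act with ligases in building ubiquitin chains, rose by 0.69 and 0.60 on the log2 scale. Birc3, the ubiquitin ligase cIAP2 and an NF-kB target, fell by 0.90.

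Of the 5 upstream genes that fell, Rbck1, Rnf31 and Sharpin encode subunits of LUBAC, a ligase that builds linear ubiquitin chains bound by NEMO. They were put together after their values were seen and were not tested as a group. Rbck1 averaged 54.6 ± 3.90 CPM in knockout and 102.8 ± 19.1 CPM in control libraries (SD, n = 6 each; log2 difference -0.91), but only -0.11 separated one knockout set from control 6. The catalytic subunit Rnf31 averaged 23.1 ± 1.90 CPM in knockout and 32.3 ± 1.19 CPM in control libraries (log2 difference -0.48, and -0.52 to -0.38 between sets). Sharpin had a log2 difference of -0.38 (edgeR adjusted p = 0.00926), and all of its set contrasts were below 0.

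Among 11 ubiquitin editors and negative regulators 2 rose, 3 fell and 6 did not pass (median 0.07). The A20-binding inhibitors Tnip2 and Tnip1 and the CYLD partner Spata2 fell by 0.71, 0.29 and 0.48 on the log2 scale, and Otud7b and Itch, which act on ubiquitin, rose by 0.30 and 0.27. Itch was lower in 1 of the 4 set contrasts (-0.04). Tnfaip3, which encodes A20 and was named after its values were seen, averaged 13.0 ± 10.6 CPM in knockout and 6.64 ± 0.773 CPM in control libraries and did not pass (edgeR adjusted p = 0.0834). Its higher mean came from knockout 5 and 6, at 26.1 and 26.9 CPM, while knockout 1 to 4 lay at 4.75 to 8.08 CPM, and its set contrasts ran from -0.13 to 2.19.

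Among 8 partners of TBK1 and IKK-epsilon 1 rose, 4 fell and 3 did not pass (median -0.68). The adaptor Tank rose by 0.41 on the log2 scale, with set contrasts from -0.18 to 0.61, and the adaptor Tbkbp1 fell by 0.75. Tmem173, the DNA-sensing adaptor STING that recruits TBK1, averaged 33.4 ± 3.99 CPM in knockout and 63.1 ± 3.84 CPM in control libraries (log2 difference -0.92, and -1.18 to -0.69 between sets). The autophagy receptor Sqstm1 averaged 798.9 ± 53.6 CPM in knockout and 1593 ± 372.3 CPM in control libraries, with a set contrast of only -0.01 at its smallest.

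Among 11 kinases beside and below TAK1 5 rose, 2 fell and 4 did not pass (median 0.36). Map2k3, which activates p38, averaged 132.8 ± 26.7 CPM in knockout and 56.6 ± 16.0 CPM in control libraries (SD, n = 6 each; log2 difference 1.23), and the p38 gene Mapk14 rose by 0.63. Map3k5, the stress kinase ASK1, rose by 1.02, and the groups of these 3 genes did not overlap. Map3k3 and Map3k8, which can also feed into NF-kB, fell by 0.62 and 0.96, with set contrasts of -0.87 to 0.19 for Map3k3 and -1.57 to -0.74 for Map3k8.

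Of 4 IKK chaperones and cofactors, Hsp90aa1 rose by 0.82 and the scaffold gene Erc1 by 0.49 on the log2 scale, and the other two did not pass (list median 0.25). Erc1 was lower in 1 of the 4 set contrasts (-0.13). Among 8 IKK substrates and NF-kB subunits 1 rose, 3 fell and 4 did not pass (median -0.17). The IkB genes differed in direction. Nfkbia rose by 0.47, with only 0.01 in its smallest set contrast. Nfkbie and Nfkbib fell by 0.87 and 0.84, with Nfkbib at 0.29 in its highest set contrast. Relb, the NF-kB subunit of the noncanonical route, averaged 17.5 ± 4.39 CPM in knockout and 28.0 ± 2.39 CPM in control libraries (log2 difference -0.68, with -0.04 in its smallest set contrast). Hsp90aa1, Ube2n and Ube2d3 have near-alike copies elsewhere in the genome, so their own levels are uncertain.

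**Figure D4:**
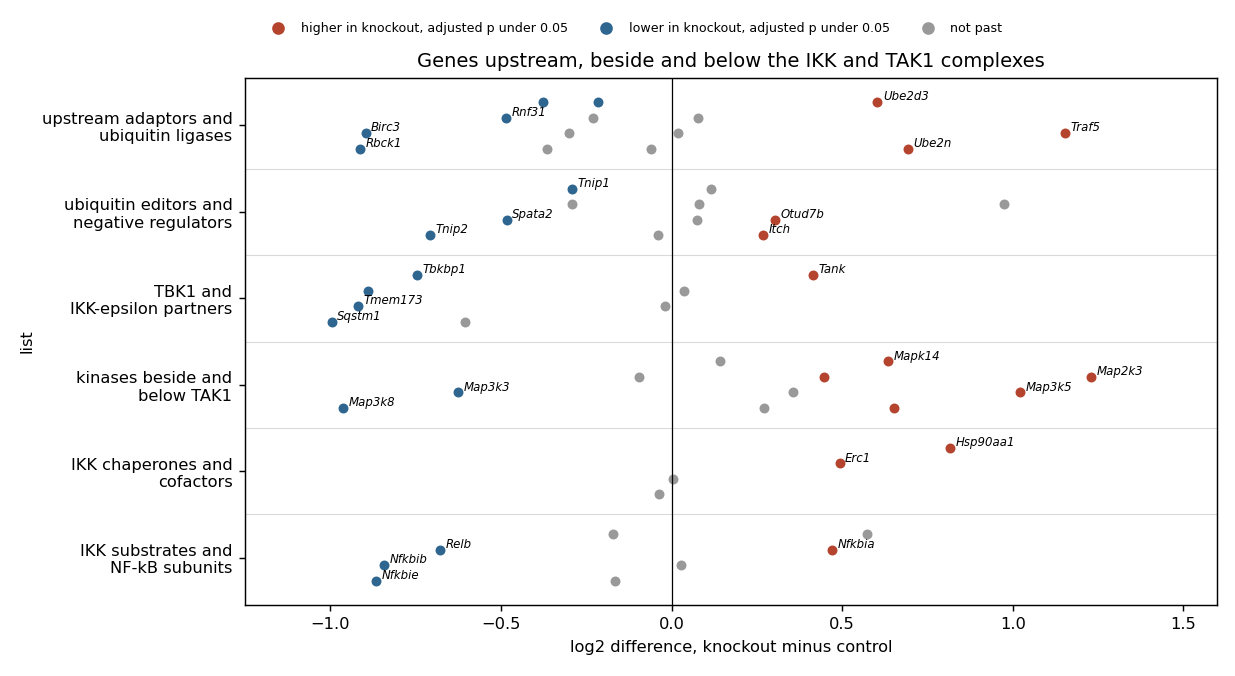
Log2 difference, knockout minus control (horizontal axis), of the 56 genes around the complexes, in 6 lists (vertical axis; the height within a list only separates points). Red and blue points passed an edgeR adjusted p of 0.05 as higher or lower in the knockout, grey points did not, and each list holds genes near 0 or on both sides of it.

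Markers in some lists of cell types, including those of fibroblasts and myofibroblasts themselves, also differed between the groups. Over all genes tested, 43.0% passed, 21.4% higher and 21.6% lower in the knockout. Of 9 tested macrophage and leukocyte markers, 6 fell, 0 rose and 3 did not pass; the summed level of all 11 was 38.5 to 57.1 CPM in knockout and 77.9 to 127.8 CPM in control libraries, with Cd3e at 0 counts in all of them. Of 7 myofibroblast and smooth muscle markers 6 rose, 0 fell and 1 did not pass, with sums of 6222 to 12510 CPM in knockout and 2955 to 6379 CPM in control libraries. The sets differed: Myh11 was at 200.4 to 286.8 CPM in knockout 1 to 4 and at 17.8 and 19.8 CPM in knockout 5 and 6, against 22.9 to 34.5 CPM in control 1 to 5 and 120.3 CPM in control 6. Acta2, Myl9, Cnn1 and Des were also lower in knockout 5 and 6 than in control 6, by log2 differences of -0.22, -0.13, -0.57 and -1.07. Tagln and Lmod1 were higher there, by 0.40 and 0.25. Of the fibroblast markers 1 of 9 rose, 4 fell and 4 did not pass. Epithelial markers had sums of 14.9 to 23.3 CPM in knockout and 7.49 to 20.2 CPM in control libraries, and 2 of 10 were tested and did not pass. Endothelial markers summed to 5.28 to 9.94 CPM in knockout and 7.10 to 11.3 CPM in control libraries (2 of 6 tested, 1 lower), and enteric glia and neuron markers to 42.7 to 50.5 CPM in knockout and 50.3 to 57.0 CPM in control libraries (4 of 7 tested, 1 higher, 2 lower). The part of these differences in the levels of the kinase genes was not tested, and in bulk RNA fewer cells of a type and less RNA per cell cannot be told apart.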

How the data were processed

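Libraries were strand-specific (dUTP) and made from oligo-dT-purified RNA, per the labels' protocols. Values are expected counts by gene symbol, as the authors deposited them. The submitters' processing notes list RSEM 1.2.15, Bowtie2 2.1.0 and a human build, while the symbols are mouse, so the build is uncertain. The annotation and strand setting were not given in the sources used here, so genes that overlap on opposite strands or have near-identical copies are uncertain.

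Counts were rounded to whole numbers, filtered by filterByExpr (minimum count 10, total 15), scaled with TMM factors and tested for genotype by the quasi-likelihood method of edgeR 4.0.16 (R 4.3.3). P-values were adjusted by Benjamini-Hochberg (threshold 0.05). The SE is the log2 difference divided by the root of F, and 95% intervals are not adjusted. CPM uses scaled library sizes, and log2 CPM a prior count of 2. Set differences use summed counts. Ratios had 0.5 added to each count. Groups came from the titles. Promoter windows are RefSeq's.

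The members and lists were chosen with earlier results of these data known. Besides the members, Tnfrsf1a and Rn45s, up to 3 called genes in each direction were named per list, by adjusted p, and the 3 most correlated genes for each of Chuk, Ikbkb, Ikbkg and Map3k7; predicted genes were passed over in these. Sharpin, Tnfaip3 and single cell type markers were named outside this rule. Ikbke stands in 1 ratio. The fit was tested on simulated data. Alternatives were DESeq2 1.42.0 size factors and test, limma-voom (limma 3.58.1), library totals, other filters, a replicate block, leaving out libraries, summed sets and leaving out Rn45s.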

Additional observations from a re-analysis of the deposited data

Results flagged for a closer look

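A library far from the rest of its group was found in 8 of 26 groups of 6 values (10 members and 3 ratios in each genotype), where chance flags about 1 in 20, and 7 of the 8 were control 6. The groups share libraries, so the flags are not independent of each other. Control 6 had already stood apart over all genes, so 1 in 20 is no measure for this count, and nothing was concluded from it. Knockout 5 and 6 lay apart as a pair for Ikbkg and Cyld and were not flagged for these genes. In CPM, control 6 was at 62.1 for Chuk (control 1 to 5 at 41.2 to 43.0), 77.7 for Ikbkg (47.3 to 55.3), 20.4 for Map3k14 (12.2 to 13.1), 95.01 for Map3k7 (80.6 to 84.7), 111.4 for Tab2 (163.7 to 168.8) and 37.7 for Tbk1 (28.9 to 29.5). Its Chuk/Ikbkb ratio was 1.3 (control 1 to 5 at 0.938 to 0.976). The Tbk1/Ikbke ratio of knockout 5, which rests on 30 counts of Ikbke, was 12.3 (other knockouts at 3.19 to 5.18). Control 6 was the deepest library, with 16458674 counts, and had the smallest share of Rn45s, 0.351%; their part in these values was not tested.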

How the results depend on the processing

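No member changed direction under any alternative run. Of the values for single members over all alternatives, 193 kept their side of the threshold, 22 lost a call and 15 gained one. Chuk kept its call in all but the fit on 4 summed sets (log2 difference 0.80 to 1.04 over the alternatives), and all 3 ratios kept theirs wherever they were tested. The number of members called was 4, and 2 to 7 with single libraries left out, where 36.5% to 49.9% of all genes were called. It was 2 with the replicate block (32.7% of all genes), 7 without knockout 5, knockout 6 and control 6, and 0 on the summed sets; the genes called over the table were 8827 and 0 in these last 2 settings, and the pathway genes called on the sums were 0. With the replicate block the calls on Map3k7, Tab3 and Tbk1 were lost (edgeR adjusted p = 0.0727, 0.0518 and 0.0669) and Cyld was called lower (0.0339). Deviations of same-numbered libraries from their group means correlated at -0.36 to 0.18, and no library correlated best with its own number (0 of 12). These deviations also hold the differences between library sets, so they cannot tell whether the numbers pair the libraries. Scaling by library totals alone ended the calls on Map3k7 and Tab3 (adjusted p = 0.123 and 0.0613) and called Ikbkb, Tab2 and Cyld lower (0.0233, 0.0476 and 0.0441); it moved the median of all genes to -0.04. DESeq2 called Tab2 lower (0.0453). The cause of these changes was not tested. The summed sets leave 2 samples a group. Counts were fewest for Map3k14 and Tab3, and the SE was largest for Ikbkg (0.19) and Map3k14 (0.17).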
